A study of Mus musculus with 8 samples.

Results

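The genes described here are 7 genes of the major histocompatibility complex (MHC) class II pathway, measured in sorted stromal cells of the mouse colon. They were taken by symbol from the first column of the deposited tables: Ciita, Cd74, H2-Aa, H2-Ab1, H2-Eb1, H2-DMa and H2-DMb1, which are 7 of the 24346 genes listed. RNA came from live cells of the whole colon that stained for podoplanin and lacked CD45, CD31, EpCAM and 7AAD signal, and each of the 8 libraries was made from a separate mouse aged 12 weeks, per the series' design text. The WT group (4 mice) carried Il10ra flox/flox, and the cKO group (4 mice) carried Pdgfra cre together with Il10ra flox/flox, so both groups share the floxed alleles. By design the receptor gene is lost only in cells in which Pdgfra has driven the Cre recombinase, now or earlier, and cells in which it never has keep it. Per the title of the series, the study asks how interleukin-10 and its receptor in fibroblasts bear on type I interferon signalling in the gut. The labels do not give the strain or the part of Il10ra between the loxP sites.

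MHC class II molecules are pairs of an alpha and a beta chain that carry peptides from endosomes to the cell surface, where CD4 T cells read them. The invariant chain Cd74 guides newly made pairs to the endosome, cathepsins trim it, and the H2-DM pair exchanges its remaining fragment for a peptide. Ciita, a co-activator that does not bind DNA by itself, switches these genes on through factors bound at the X and Y boxes of their promoters. B cells, dendritic cells and macrophages hold class II at all times, whereas fibroblasts and other stromal cells take it up mainly after interferon-gamma.

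The X and Y boxes are what the class II genes have in common upstream of their start, so the promoters are shown first. RefSeq promoter windows (GRCm38.p6, a short stretch around each annotated start) were at hand for 4 of the 7 genes. The windows were searched on both strands for CNNGNAAC, the core of an X box, and for TGATTGG, a Y box with its reversed CCAAT. The X core alone was in 39.1% of all 32851 windows and the Y core alone in 7.82%. Both on the same strand, X first and 15 to 30 bases between them, were in 39 windows (0.119%), which belong to 36 of 27025 genes. These 36 include H2-Aa, H2-Eb1 and H2-DMb1, 3 of the 4 members with a window, and also H2-Eb2, H2-Oa and H2-Ob. The letters and the spacing were chosen after the windows had been read. H2-DMa had no such pair of letters in its windows, and Ciita, Cd74 and H2-Ab1 are named only. H2-DMb2, a second H2-DM beta chain gene, had both cores in its window but not in this arrangement. The stretches below are 5′ to 3′ on the gene's own strand, with the X core and then the Y core in capitals. H2-Oa and H2-Ob, the subunits of a class II protein that holds H2-DM back, are given for comparison.
H2-Aa, chr17:34287855-34287919, minus strand: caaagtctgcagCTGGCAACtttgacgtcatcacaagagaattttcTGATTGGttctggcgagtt
H2-Eb1, chr17:34305761-34305824, plus strand: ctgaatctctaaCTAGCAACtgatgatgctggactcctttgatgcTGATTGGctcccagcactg
H2-DMb1, chr17:34153082-34153146, plus strand: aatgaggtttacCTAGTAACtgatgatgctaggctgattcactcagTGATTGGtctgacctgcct
H2-Oa, chr17:34092288-34092352, plus strand: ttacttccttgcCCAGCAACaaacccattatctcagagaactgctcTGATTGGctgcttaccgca
H2-Ob, chr17:34238803-34238864, plus strand: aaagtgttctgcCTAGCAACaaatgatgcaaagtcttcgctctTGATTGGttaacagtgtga
The gap between the cores was 26 bases in H2-Aa, H2-DMb1 and H2-Oa, 25 in H2-Eb1 and 23 in H2-Ob. A match of letters is a description and shows no binding.

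The tables hold FPKM, fragments scaled to the length of the transcript and to the mapped fragments of the library, which can be compared between genes of different length. Between 15815 and 16323 genes were above 0 in a library. Low values put the relative depth between 0.868 (WT 2) and 1.10 (cKO 3) of that of WT 1, and the absolute depth at a median of about 17560741 fragments (quartiles 16305813 and 17735421, from 85 genes). Correlations of log2 values between libraries ran from 0.965 to 0.989. Il10ra itself was low in both groups, at 0.842, 0.665, 0.614 and 0.403 FPKM in WT 1 to 4 and at 0.439, 0.273, 0.633 and 0.636 FPKM in cKO 1 to 4. The groups overlap (two-sided exact permutation p = 0.40), and since the deleted part is not known, this value over the whole gene does not check the genotype labels. The sort marker Pdpn (84.8 to 94.7 FPKM), Pdgfra (126 to 167 FPKM) and the collagen gene Col1a1 (2130 to 3053 FPKM) were high in all 8 libraries. RNA of the cells that the sort was set to remove was also read: Ptprc, which encodes CD45, lay at 1.99 to 4.15 FPKM, Pecam1 (CD31) at 0.594 to 2.37 FPKM, and Epcam at 1.27 to 34.7 FPKM, highest in cKO 1.

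All 7 class II genes were above 0 in every library, in both genotypes. In each of the 8 libraries their order was the same: Cd74 highest, then H2-Ab1, H2-Aa, H2-Eb1, H2-DMb1, H2-DMa and Ciita. The spread over the libraries was 1.82-fold to 2.51-fold between the lowest and the highest library of a gene. The ranges of Cd74 and H2-Ab1 touched each other, as did those of H2-DMb1 and H2-DMa, whereas the other neighbours in the order did not overlap. No gene separated WT from cKO: the 2 groups overlapped for 7 of 7.

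The invariant chain gene Cd74 (chromosome 18, 60803848 to 60812652, plus strand, mm10) lay at 234, 187, 206 and 219 FPKM in WT 1 to 4. In cKO 1 to 4 it lay at 292, 213, 152 and 302 FPKM. The cKO libraries thus held both the lowest value and the highest ones, with the WT libraries between them. The means were 212 ± 19.8 FPKM in WT and 239.9 ± 70.6 FPKM in cKO (SD, n = 4 each). The difference, cKO minus WT, was 0.13 on the log2(FPKM + 1) scale (SE 0.19, 95% interval -0.30 to 0.56), with a Benjamini-Hochberg adjusted p of 0.969 in limma. Without cKO 3 the difference was 0.33 (0.04 to 0.62, unadjusted p = 0.0286 and adjusted p = 0.816 in limma), and without cKO 4 it was 0.0049. Cd74 was 1.83 to 2.19 times as abundant as H2-Ab1 in a library, per length.

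The classical chains are encoded by H2-Aa (chromosome 17, 34282744 to 34287823, minus strand), H2-Ab1 (34257689 to 34269419, plus strand) and H2-Eb1 (34305867 to 34316674, plus strand). H2-Ab1, the beta chain of I-A, was the most abundant of them, at 121.7, 93.3, 109 and 119.8 FPKM in WT 1 to 4 and at 133, 111.5, 81.5 and 163 FPKM in cKO 1 to 4. H2-Aa, the alpha chain of the same molecule, lay at 65.8, 43.4, 54.1 and 63.7 FPKM in WT and at 79.0, 56.8, 43.9 and 78.6 FPKM in cKO. H2-Eb1, the beta chain of I-E, lay at 24.4, 16.8, 21.8 and 23.4 FPKM in WT and at 33.8, 21.3, 15.1 and 27.1 FPKM in cKO. For all 3 genes cKO 1 and cKO 4 were the highest libraries, WT 2 was the lowest WT library and cKO 3 the lowest cKO library. H2-Ab1 was 1.69 to 2.15 times H2-Aa, and H2-Aa was 2.34 to 2.90 times H2-Eb1, in a library. H2-Ea-ps, which the annotation lists as a polymorphic pseudogene of the I-E alpha chain, was listed at 0 in all 8 libraries. In limma the differences were 0.16 for H2-Aa (SE 0.19, -0.27 to 0.60), 0.10 for H2-Ab1 (SE 0.18, -0.31 to 0.51) and 0.12 for H2-Eb1 (SE 0.21, -0.35 to 0.59). Their adjusted p-values in limma were 0.957, 0.975 and 0.975. The difference of H2-Aa ran from 0.041 without WT 2 to 0.33 without cKO 3. The sign of H2-Ab1 turned without cKO 4 (-0.049) and that of H2-Eb1 without cKO 1 (-0.051).

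**Figure D1:**
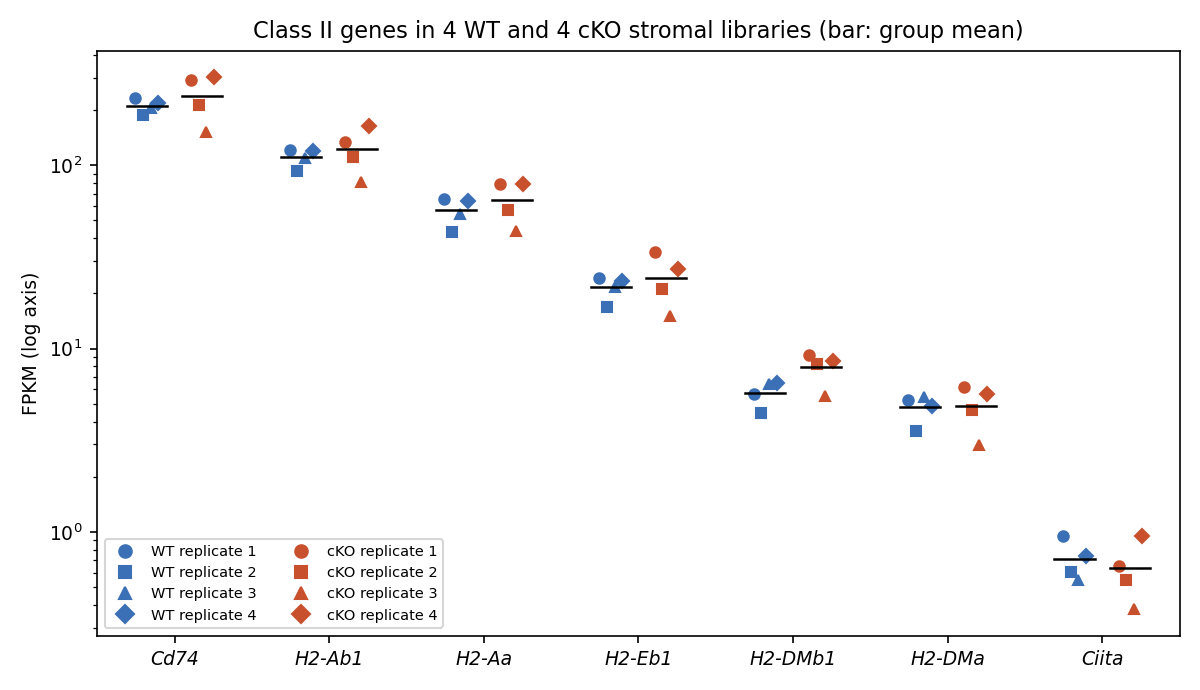
FPKM (log axis) of the 7 class II genes in each library, with WT in blue, cKO in red, 1 symbol per replicate number and a bar at the group mean. The cKO points spread more widely than the WT points, from cKO 3 at the bottom to cKO 1 and cKO 4 at the top, and the groups overlap for each gene.

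The spread within cKO was larger than within WT for each of the 7 genes. The coefficient of variation of Cd74 was 9.36% over the WT libraries and 29.4% over the cKO libraries. That of H2-Ab1 was 11.7% and 28.2%, that of H2-Eb1 15.6% and 32.8%, and that of H2-Aa 18.1% and 26.7%. For Ciita it was 25.5% and 38.1%, for H2-DMa 17.8% and 28.9%, and for H2-DMb1 16.4% and 20.6%. This difference in spread was not tested, and the 7 genes share their libraries, so they are not 7 separate observations of it. The library cKO 3 was the lowest cKO library for 7 of 7 genes and the lowest of all 8 for 5, and WT 2 was the lowest WT library for 6 of 7. The highest of all 8 was cKO 1 for 4 genes (H2-Aa, H2-Eb1, H2-DMa and H2-DMb1), cKO 4 for Cd74 and H2-Ab1, and WT 1 for Ciita.

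The peptide exchange factor H2-DM is made of the products of H2-DMa (chromosome 17, 34119541 to 34139101) and H2-DMb1 (34153072 to 34160230), both on the plus strand. H2-DMa lay at 5.22, 3.56, 5.47 and 4.84 FPKM in WT 1 to 4 and at 6.17, 4.6, 3.00 and 5.67 FPKM in cKO 1 to 4. Its means were 4.78 ± 0.848 FPKM in WT and 4.86 ± 1.40 FPKM in cKO (SD, n = 4 each), and its difference in limma was -0.00093 (SE 0.18, -0.41 to 0.41). When the FPKM were rescaled to a fixed sum, that difference became 0.028. Fragments of Brd2, a gene at a mean of 95.2 FPKM, can overlap H2-DMa on the other strand, and whether the counting used the strand is not given in the sources used here.

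H2-DMb1 was the member with the largest difference between the groups, though it was not called. It lay at 5.67, 4.45, 6.38 and 6.51 FPKM in WT 1 to 4 and at 9.25, 8.29, 5.54 and 8.53 FPKM in cKO 1 to 4. The libraries cKO 1, cKO 2 and cKO 4 were thus above all WT libraries, and cKO 3 was below 3 of them. The means were 5.75 ± 0.946 FPKM in WT and 7.90 ± 1.62 FPKM in cKO (SD, n = 4 each). In limma the difference was 0.39 (SE 0.15, 95% interval 0.05 to 0.73), with an unadjusted p of 0.0290 and an adjusted p of 0.897, so it was not called. The two-sided exact permutation p was 0.114, where the smallest p that 4 against 4 libraries allow is 0.0286. Leaving out 1 library at a time gave differences of 0.29 to 0.53, and the interval included 0 without WT 1, WT 2, cKO 1, cKO 2 or cKO 4. It also included 0 with no filter on low values (-0.020 to 0.80), with array weights (-0.017 to 0.67) and with the list of epithelial genes as a covariate, where the difference was 0.32 (-0.067 to 0.70, unadjusted p = 0.0948 in limma).

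Genes of other cell types that the sort was set to remove were also higher in some cKO libraries. Their part in the H2-DMb1 difference was looked at only with the epithelial covariate and with covariates of leukocyte genes. No endothelial or plasma cell covariate was run. With the list of B cell genes as a covariate the difference was 0.39 (0.08 to 0.70, unadjusted p = 0.0199 and adjusted p = 0.903 in limma). The fits with Ptprc and Lyz2 and with a pan-leukocyte list are given below. All 10 genes of the epithelial list were above 0 in all libraries and higher in cKO in the mean, with a median difference of 0.89, 0 called and 0 at an unadjusted p under 0.05 in limma. Their summed FPKM was 41.9 to 98.5 in WT and 37.9 to 823 in cKO, with cKO 1 highest and cKO 4 lowest. The 6 lymphatic endothelial genes summed to 0.712 to 5.47 FPKM in WT and 6.18 to 15.3 FPKM in cKO, without overlap. In cKO and in WT 3 much of this sum is Ccl21a, at 0.00033, 0.0017, 4.49 and 0.00061 FPKM in WT 1 to 4 and at 4.81 to 11.9 FPKM in cKO. Without Ccl21a the sums overlap, with WT 1 above cKO 2. At the estimated depth its values in WT 1, WT 2 and WT 4 are under 1 fragment. How the authors' tools assigned its fragments was not examined. Ccl21a, the 1 gene of them tested, was not called (adjusted p = 0.761 in limma). Lyve1 and Prox1 overlapped between the groups, and Flt4, Mmrn1 and Reln, each at most 1.40 FPKM, did not. Of all tested genes, 1.36% had cKO wholly higher and 47.4% were higher in cKO in the mean. The 7 blood endothelial genes summed to 5.06 to 9.10 FPKM in WT and 9.35 to 22.3 FPKM in cKO, and all were above 0 in all libraries, as were the lymphatic ones. The 4 plasma cell genes summed to 23.8 to 57.2 FPKM in WT and 22.03 to 146 FPKM in cKO, with Tnfrsf17 at 0 in some libraries.

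H2-DMb1 has a close neighbour, H2-DMb2, a second beta chain gene at 34143307 to 34151555 on the same strand. Of the 50-base words in the longest H2-DMb1 transcript, 27.2% also occur in H2-DMb2, so its FPKM depends on how the authors' tools shared such fragments, while the other 6 genes shared none with any other gene. H2-DMb2 lay at 9.30, 8.46, 8.19 and 6.80 FPKM in WT and at 8.13, 5.87, 6.20 and 16.0 FPKM in cKO, with cKO 4 far above the rest. The ratio of H2-DMb1 to H2-DMa within a library was 1.09, 1.25, 1.17 and 1.35 in WT and 1.5, 1.80, 1.85 and 1.5 in cKO. These ratios did not overlap (1.21 ± 0.111 against 1.66 ± 0.188, SD, n = 4 each), with an exact permutation p of 0.0286, the smallest possible, and an adjusted p of 0.436 over the 21 pairs of members. It was the 1 pair of 21 without overlap, and the set of pairs was taken up after the values had been seen. A single pair at the smallest possible p cannot come under 0.05 after adjustment over 21 pairs. With both beta genes summed, the ratio to H2-DMa was 2.98 ± 0.439 in WT and 3.53 ± 0.704 in cKO, and the groups overlapped (exact permutation p = 0.20).

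**Figure D2:**
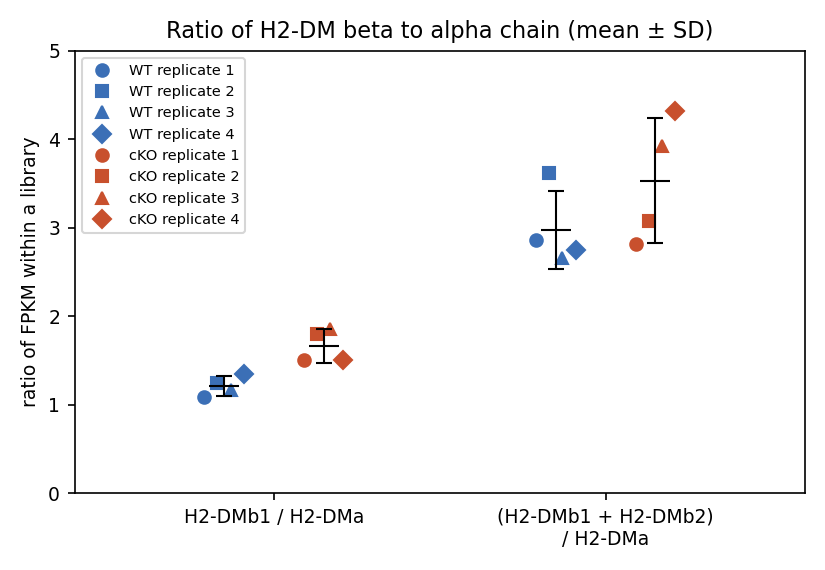
Ratio of FPKM of the H2-DM beta chain to the alpha chain within each library, for H2-DMb1 alone (left) and for the sum of H2-DMb1 and H2-DMb2 (right), with the mean and SD of 4 libraries as bars. On the left the cKO libraries (1.5 to 1.85) lie above the WT libraries (1.09 to 1.35), and on the right the groups overlap.

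Ciita (chromosome 16, 10480059 to 10528418, plus strand), the switch of the pathway, was the lowest member. It lay at 0.954, 0.605, 0.546 and 0.736 FPKM in WT 1 to 4 and at 0.654, 0.545, 0.380 and 0.952 FPKM in cKO 1 to 4. WT 1 and cKO 4 were the high libraries and cKO 3 was the low one. At the estimated depth and the longest transcript of 6007 bases these values stand for about 44 to 102 fragments per library, which is an estimate and not a deposited count. The means were 0.710 ± 0.181 FPKM in WT and 0.633 ± 0.241 FPKM in cKO (SD, n = 4 each). Ciita did not reach the mean FPKM of 1 that the test required, and in the limma fit of all 24346 genes its difference was -0.073 (SE 0.12, -0.37 to 0.22, adjusted p = 1). Without cKO 3 it was 0.0044. Ciita overlaps Dexi (mean of 17.6 FPKM) on the other strand over part of its length.

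Across all genes, 1 of 11506 tested genes was called between cKO and WT at an adjusted p under 0.05 in limma, which is 0.00869%. That gene was Mir5098, a short RNA gene lower in cKO and no member of the pathway. Of the 6 members tested, 0 were called, and H2-DMb1 alone had an unadjusted p under 0.05 in limma, where 5.41% of all tested genes had one. None of the 7 members had groups that did not overlap, against 1.36% of tested genes with cKO wholly higher and 1.90% with cKO wholly lower. In the mean of log2(FPKM + 1), 5 of the 7 members were higher in cKO (H2-Aa, H2-Ab1, H2-Eb1, Cd74 and H2-DMb1), where 47.4% of tested genes were. H2-DMa, at -0.00093 on that scale, was slightly higher in cKO in its mean FPKM. The median difference of the 7 members was 0.12, and that of all tested genes was -0.0065. With FPKM rescaled to a fixed sum, 6970 of 11506 genes were higher in cKO in place of 5451, and 6 of the 7 members. In the main fit the intervals exclude a rise or fall of more than 0.60 for Cd74, H2-Aa, H2-Ab1, H2-Eb1 and H2-DMa, and smaller differences could not be resolved with these 8 libraries. Some other settings passed that bound. The upper end was 0.72 for H2-Aa and H2-Eb1 without WT 1, and 0.68 for Cd74 with no filter on low values.

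The other class II chains did not separate the groups either. Of 5 listed, 3 were tested in limma, with 0 called and 0 at an unadjusted p under 0.05. H2-Oa and H2-Ob, shown above for their promoters, lay at 0.878 to 1.54 and 1.29 to 2.66 FPKM in WT and at 0.974 to 3.29 and 1.17 to 4.11 FPKM in cKO. Both were highest in cKO 4, as was H2-DMb2. H2-Eb2 stayed at or under 0.354 FPKM.

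The factors that Ciita works with were present in all libraries. Rfx5, Rfxap and Rfxank, the subunits of the complex on the X box, lay at 3.64 to 4.75, 7.62 to 10.2 and 3.05 to 4.42 FPKM. The list of promoter factors had 6 of 7 genes tested in limma, with 0 called and 1 at an unadjusted p under 0.05. Over all tested genes 5.41% had such a p in limma, and 1.90% had cKO wholly lower. Rfxank was the 1 gene of the list without overlap: it lay at 4.42, 3.86, 3.53 and 4.31 FPKM in WT and at 3.05, 3.35, 3.33 and 3.26 FPKM in cKO. Its difference was -0.24 (SE 0.09), with an unadjusted p of 0.0191 and an adjusted p of 0.897 in limma. Nfyb and Nfyc, subunits of the Y box factor, differed by -0.019 and -0.028.

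Among 7 genes of peptide supply and turnover tested in limma, 0 were called and 0 had an unadjusted p under 0.05. Ctss, the cathepsin that makes the last cut in the invariant chain in immune cells, lay at 4.22 to 8.62 FPKM in WT and at 5.75 to 17.6 FPKM in cKO, with cKO 1 highest. Its difference was 0.42 (SE 0.30, adjusted p = 0.929 in limma). Ifi30, a reductase that opens disulphide bonds of antigens, was also highest in cKO 1 (24.6 FPKM, against 16.1 to 17.9 FPKM in the other libraries). Ctsl, another cathepsin, was far more abundant, at 378 to 446 FPKM, and differed by -0.083.

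The route from interferon-gamma to Ciita was also read. Ifng itself was listed at 0 in 5 libraries and was at most 0.148 FPKM. Its receptor gene Ifngr1 lay at 121 to 141 FPKM, and Irf1, a factor that acts on one of the Ciita promoters, lay at 293 to 394 FPKM in WT and at 309 to 332 FPKM in cKO. Of the 8 genes of this axis tested in limma, 0 were called, 0 had an unadjusted p under 0.05, and 5 were higher in cKO in the mean. Over all tested genes 47.4% were higher in cKO in the mean.

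Of the co-stimulation and checkpoint ligands, 5 were tested in limma, with 0 called and 2 at an unadjusted p under 0.05. Over all tested genes 5.41% had such a p in limma, 1.36% had cKO wholly higher and 1.90% had cKO wholly lower. Cd274, which encodes the inhibitory ligand PD-L1, lay at 3.10, 2.68, 3.16 and 3.35 FPKM in WT and at 4.56, 4.10, 3.39 and 4.42 FPKM in cKO. The groups did not overlap, by a small margin between WT 4 and cKO 3. The difference was 0.33 (SE 0.10), with an unadjusted p of 0.00879 and an adjusted p of 0.897 in limma. Tnfsf9, the ligand of 4-1BB, was lower without overlap (71.3 to 85.6 FPKM in WT, 69.96 to 71.1 FPKM in cKO, adjusted p = 0.897 in limma). Cd86, a co-stimulatory ligand of antigen-presenting cells, lay at 0.836 to 2.06 FPKM and differed by -0.25.

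Leukocyte genes were set beside the class II genes, since leukocytes hold class II and CD45 was the marker used to remove them. Ptprc lay at 3.98, 3.13, 2.49 and 3.79 FPKM in WT 1 to 4 and at 4.15, 2.95, 1.99 and 4.01 FPKM in cKO 1 to 4. Like 5 of the 7 class II genes it was lowest in cKO 3, and cKO 1 and cKO 4 were its highest libraries. Lyz2, a lysozyme gene of macrophages and granulocytes, lay at 49.1, 31.6, 35.1 and 34.9 FPKM in WT and at 76.7, 38.2, 37.8 and 33.9 FPKM in cKO, so that cKO 4, high in class II, had a low Lyz2. All 8 genes of a pan-leukocyte list (Ptprc, Coro1a, Laptm5, Cd53, Cd52, Rac2, Vav1 and Lcp1) were above 0 in all 8 libraries, and their summed FPKM was 47.9 to 62.5 in WT and 39.9 to 90.5 in cKO. Of the macrophage and monocyte list 12 of 12 genes were above 0 in all libraries (summed FPKM 65.6 to 92.5 in WT and 66.7 to 153 in cKO). Of the B cell list 8 of 9 were (85.2 to 93.9 and 77.7 to 108), with Pax5 at 0 in some libraries, and of the dendritic cell list 8 of 9 (15.2 to 17.8 and 13.1 to 23.0), with Siglech at 0 in some. The dendritic cell sum is mostly Ccr7 (mean of 9.27 FPKM) and Zbtb46 (6.09 FPKM), the other 7 genes each had a mean of at most 0.686 FPKM, and Zbtb46 ran against the mean of the class II genes over the libraries (r = -0.78). In a bulk library, fewer cells of a type and less RNA per cell cannot be told apart.

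Over the 8 libraries, Pearson's r of the 7 class II genes with Ptprc was 0.42 to 0.86 (median 0.82) and Spearman's rho 0.62 to 0.90, on log2(FPKM + 1). The exact permutation p of Cd74 with Ptprc was 0.00474 for r (0.86), and its value adjusted over 42 relations (7 genes by Ptprc, Lyz2 and 4 marker lists) was 0.0859. None of the 42 passed. H2-DMb1 had the lowest r with Ptprc. Without WT 3 and cKO 3, the libraries farthest from the median of Ptprc, r was 0.33 to 0.83. With Lyz2, r was 0.12 to 0.67 and rho -0.02 to 0.48, and without WT 1 and cKO 1 r was -0.52 to 0.45. It was then negative for every member but H2-DMb1, so for those members the relation rests on those libraries. For H2-DMb1 r was 0.48 with all libraries and 0.45 without these. With the list of B cell genes r was 0.43 to 0.87 and rho 0.40 to 0.79, and without cKO 3 and cKO 4 r was -0.04 to 0.64. The dendritic cell list gave r of 0.13 to 0.75 and rho of 0.21 to 0.71, and without cKO 1 and cKO 4 r was -0.16 to 0.31. The epithelial list gave r of -0.20 to 0.52 and rho of -0.14 to 0.29, and without cKO 1 and cKO 2 r was -0.63 to -0.21. The lymphatic endothelial list gave r of -0.28 to 0.68 and rho of -0.26 to 0.57, highest for H2-DMb1, and without WT 2 and cKO 1 r was -0.48 to 0.28. The upper and lower ends of r fell for each of these 4 lists once those libraries were left out. Ebf1, the most abundant gene of the B cell list at 54.9 to 68.7 FPKM, varied little over the libraries.

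The relation with the whole pan-leukocyte list was looked at after these values had been seen. With the mean log2(FPKM + 1) of the 8 genes, r was 0.66 to 0.97 (median 0.90) and rho 0.69 to 0.95. For 4 of the 7 genes the exact permutation p passed after adjustment over 49 added relations: Cd74 (r = 0.97, adjusted p = 0.0109), H2-Eb1 (r = 0.96, adjusted p = 0.0142), H2-Aa (r = 0.94, adjusted p = 0.0142) and H2-Ab1 (r = 0.90, adjusted p = 0.0399). Without cKO 1 and cKO 3 r was 0.61 to 0.98 over the 7 genes, and on deviations from the group means it was 0.76 to 0.97, so it was also seen within genotypes. The list of macrophage genes gave r of -0.03 to 0.56 and rho of 0.05 to 0.43, B2m gave r of -0.19 to 0.62 and rho of -0.21 to 0.52, and the list of fibroblast genes gave r of -0.83 to -0.48 and rho of -0.74 to -0.45, with 0 passed in each. Without the 2 libraries farthest from the median these became -0.62 to 0.05, -0.24 to 0.65 and -0.44 to 0.36. FPKM are shares of a library, so a high value of some genes lowers all others.

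**Figure D3:**
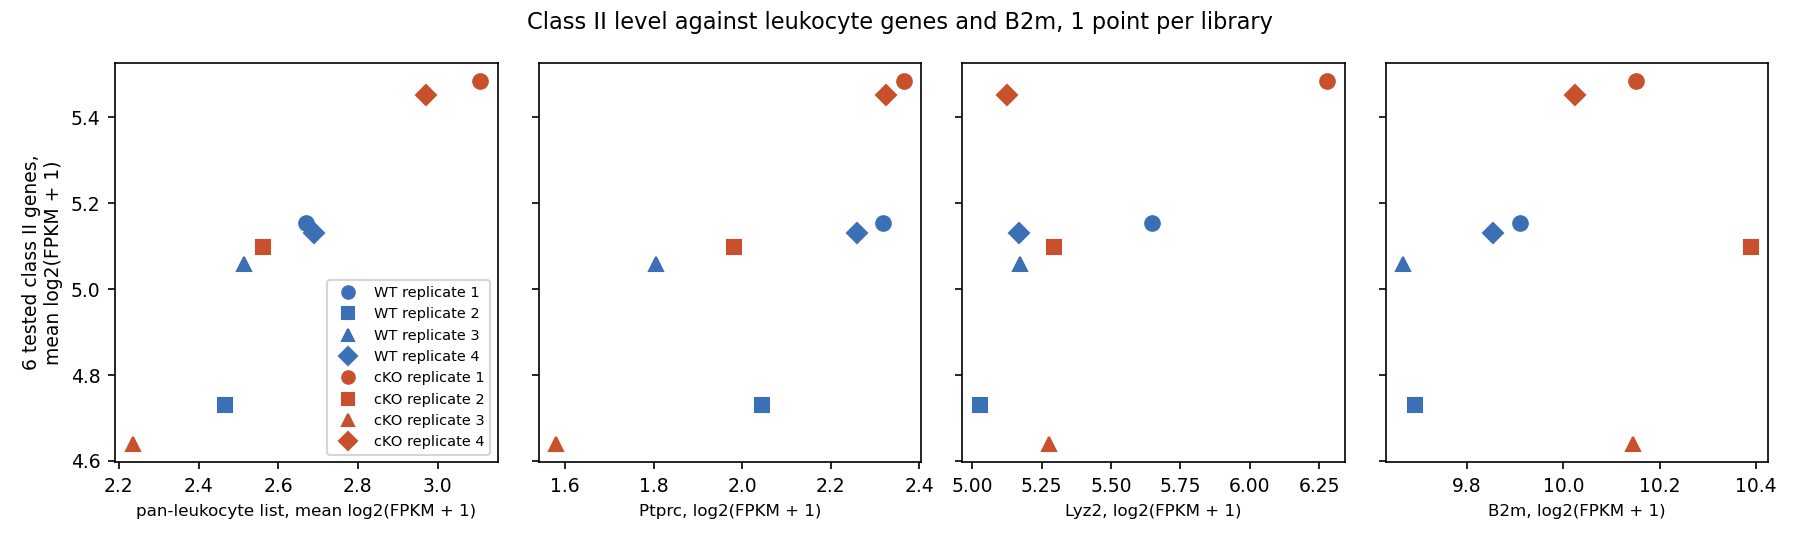
Mean log2(FPKM + 1) of the 6 tested class II genes (y axis) against the pan-leukocyte list mean, Ptprc, Lyz2 and B2m (x axes, log2(FPKM + 1)), 1 point per library with WT in blue and cKO in red. The points rise together in the first panel, from cKO 3 (2.23 and 4.64) to cKO 1 (3.11 and 5.48), and scatter in the panels of Lyz2 and B2m.

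With Ptprc and Lyz2 as covariates in limma, the differences between the groups were 0.055 for Cd74, 0.079 for H2-Aa, 0.045 for H2-Ab1, 0.021 for H2-Eb1, -0.067 for H2-DMa, -0.10 for Ciita and 0.34 for H2-DMb1 (adjusted p = 0.848). With the mean of the pan-leukocyte list as the covariate, added after seeing the data, they were -0.019 for Cd74 (-0.16 to 0.12), 0.014 for H2-Aa, -0.030 for H2-Ab1, -0.043 for H2-Eb1, -0.13 for H2-DMa and -0.14 for Ciita. H2-DMb1 stayed at 0.30 (0.04 to 0.56, unadjusted p = 0.0282, adjusted p = 0.997 in limma). The intervals of Cd74 and the classical chains were narrower in that fit. Whether the class II RNA came from leukocytes that passed the sort or from the stromal cells themselves was not tested.

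**Figure D4:**
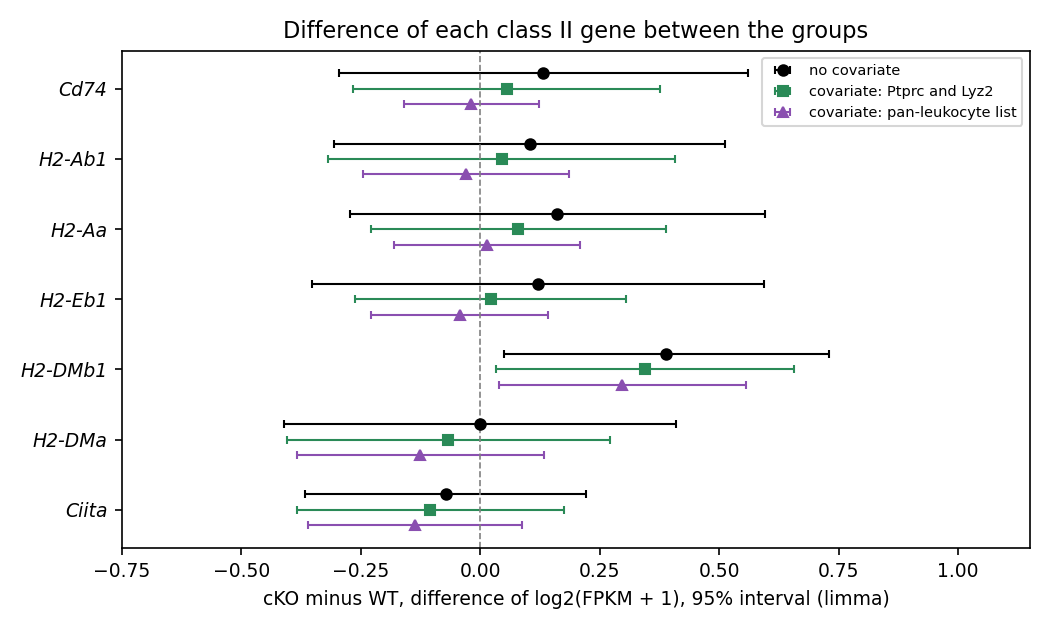
Difference, cKO minus WT, of log2(FPKM + 1) with its 95% interval from limma for the 7 class II genes, without a covariate (black), with Ptprc and Lyz2 (green) and with the pan-leukocyte list mean (purple). The intervals of 6 genes include 0 in all 3 fits, and those of H2-DMb1 lie above 0 in these 3 fits but not in some others (with the epithelial covariate -0.067 to 0.70), and it does not pass after adjustment in any.

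The ratio of Cd74 to Ptprc was 58.0 to 82.7 and that of H2-Ab1 to Ptprc 29.8 to 43.7, per length, over the 8 libraries. A sample of sorted leukocytes, which would show the ratios of those cells, was not analysed here. Ratios of each member to Ptprc, Lyz2 and B2m on the log2(FPKM + 1) scale gave 21 comparisons between the groups, of which 0 passed the exact permutation test after adjustment (smallest adjusted p = 0.60). A single ratio at the smallest p that this test allows (0.0286) cannot come under 0.05 after adjustment over 21 ratios. Ciita against B2m was the 1 ratio without overlap, at -9.058 to -8.94 in WT and -9.76 to -9.060 in cKO. It differed by -0.47 (exact permutation p = 0.0286, adjusted p = 0.60). The margin was small, and most of this difference was that of B2m, which was higher in cKO by 0.40 without overlap. Ciita alone differed by -0.073.

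Class I genes, which present peptides from the cytosol to CD8 T cells, were set beside the class II genes in the same libraries. B2m, the light chain of class I, lay at 962, 827, 813 and 924 FPKM in WT and at 1135, 1340.1, 1132 and 1041 FPKM in cKO, so that all cKO libraries were above all WT libraries. Of 7 tested class I genes (B2m, H2-K1, H2-D1, Tap1, Tapbp, Psmb8 and Psmb9) 7 were higher in cKO in the mean, 6 had an unadjusted p under 0.05, 3 did not overlap and 0 were called (B2m 0.40, SE 0.09, adjusted p = 0.761 in limma). Over all tested genes, 47.4% were higher in cKO, 5.41% had an unadjusted p under 0.05 in limma and 1.36% had cKO wholly higher. The 7 class I genes share their libraries, so they are not 7 separate observations. Their median difference was 0.36, beside 0.13 for the 6 class II genes tested. The library cKO 2 was the highest for B2m, H2-K1 and H2-D1 and was in the middle for class II. The difference between the class I and the class II shifts was tested only through the ratios to B2m, of which none passed.

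**Figure D5:**
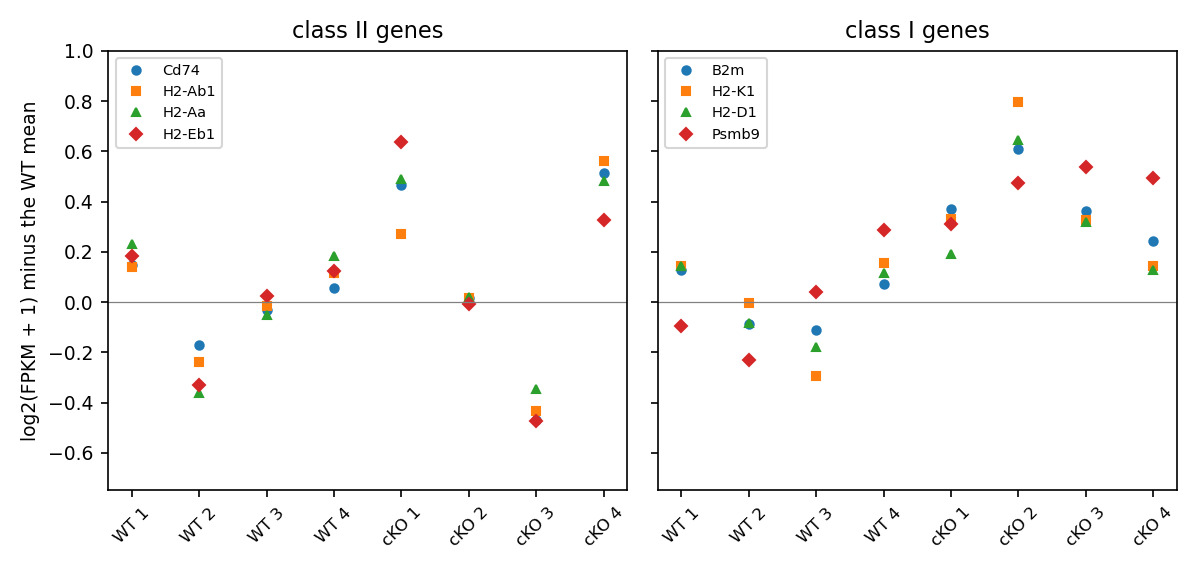
log2(FPKM + 1) minus the WT mean for 4 class II genes (left) and 4 class I genes (right) in each of the 8 libraries, 1 marker per gene. The class II genes are low together in WT 2 and cKO 3 and high together in cKO 1 and cKO 4, whereas the class I genes lie above the WT mean in all 4 cKO libraries.

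The genes whose values were most like the class II genes were ranked by Pearson's r to the mean log2(FPKM + 1) of the 6 tested members over the 8 libraries, among 11500 other tested genes. Among the 10 highest were Vps37b (0.96), Egln1 (0.96), Laptm5 (0.95), Lcp1 (0.95), Slc39a1 (0.94), Donson (0.94), Fam188a (0.92), Hmha1 (0.92) and Syt17 (0.92). On deviations from the group means, the 10 highest were, after passing over 1 predicted or non-coding gene that ranked above Laptm5, Nipsnap1 (0.99), Vps37b, Tulp3, Cd274 (0.96), Egln1, Lcp1, Tle4, Homer3, Laptm5 and Eml4 (0.94), and 4 genes were in both sets. Laptm5 and Lcp1 belong to the pan-leukocyte list. Ranks of other genes by log2 values were 16 for Coro1a, 21 for Rac2, 58 for H2-Ob and 114 for Ptprc. Since r was ranked over all tested genes, no p is given.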

How the data were processed

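The authors deposited FPKM per gene for each of 8 libraries. SMART-Seq HT cDNA from sorted cells was made into Nextera XT libraries, per the labels' protocols, and the submitters' processing notes name Cufflinks 2.2.1, Cuffdiff, TopHat2 2.1.1, SAMtools 0.1.18 and Bowtie2 2.3.5.1, with the mm10 build. The annotation, the use of strand and the settings: not given in the sources used here. As these values are not counts, no count model was used, and depth was estimated from the steps of low values.

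Values were transformed to log2(FPKM + 1), which understates changes of low genes. Those reaching 1 FPKM in the mean of all libraries were tested with limma (lmFit, eBayes with trend, 2 groups) and called at a Benjamini-Hochberg adjusted p under 0.05. Single values were tested with two-sided exact permutation tests over 70 arrangements, and correlations over 40320 pairings. The p-values measure the spread between mice.

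The members, gene lists and alternatives were chosen with earlier results of these data known. Named genes were all members, up to 3 genes of each pathway list with the smallest unadjusted p, Ifng, Irf1, abundant markers and the 10 genes most like the members. Genes named beyond these, such as Ifngr1, Rfx5, Rfxap, Nfyb, Nfyc, Dexi, Brd2, Mir5098 and those of the pan-leukocyte list, were chosen after their values were seen. A few genes that these rules take are not reported here. Positions are those of GENCODE M21 (GRCm38, the same assembly as mm10). Promoters are from RefSeq. Alternatives were other pseudocounts, filters, scalings, eBayes settings, array weights, covariates, the replicate block and leaving out each library.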

Additional observations from a re-analysis of the deposited data

Results flagged for a closer look

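In groups of 4 libraries, a library was marked where its gap to the nearest of the others took up most of the group's range (Dixon's 95% limit), over 58 groups of 4 values. Chance marks about 1 in 20 groups, and 2 were marked. Lyz2 was 76.7 FPKM in cKO 1, against 33.9 to 38.2 FPKM in the other cKO libraries. This library also had the highest values of H2-Aa, H2-Eb1, H2-DMa and H2-DMb1. The list of smooth muscle and glia genes had a mean log2(FPKM + 1) of 1.36 in WT 3, against 1.12 to 1.14 in the other WT libraries, and WT 3 was neither the highest nor the lowest of the 8 libraries for any of the 7 class II genes.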

How the results depend on the processing

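None of the 7 class II genes was called under any alternative that was run, and the smallest adjusted p in limma over these was 0.776, for H2-DMb1. H2-Aa and H2-DMb1 kept a positive sign throughout. The number of genes called was 1, 2 with no filter on low values, and 1 to 4 without 1 library (3 without WT 3, 4 without cKO 1, 2 without cKO 2). Members higher in cKO numbered 5, 2 with the pan-leukocyte covariate (added after seeing the data), and 4 to 7 without 1 library (7 without cKO 3, 4 without cKO 1 or cKO 4). Signs turned for Cd74 (-0.019), H2-Ab1 (-0.030) and H2-Eb1 (-0.043) with that covariate, for H2-Eb1 with the epithelium covariate (-0.020), for H2-DMa after rescaling to a fixed sum (0.028) and for H2-DMb1 over B2m with a pseudocount of 0.1 (0.045). The cause was not tested. Leaving out 1 library gave -0.16 to 0.0044 for Ciita, 0.0049 to 0.33 for Cd74, 0.041 to 0.33 for H2-Aa, -0.049 to 0.28 for H2-Ab1, -0.051 to 0.32 for H2-Eb1 and -0.11 to 0.17 for H2-DMa. It gave ratios to Ptprc of -0.11 to 0.062 for Ciita and -0.045 to 0.20 for H2-DMa, and of H2-DMb1 to B2m of -0.10 to 0.12. Ratios to Lyz2 ran from -0.36 to 0.042 for Cd74, -0.31 to 0.074 for H2-Aa, -0.41 to 0.069 for H2-Ab1, -0.31 to 0.0052 for H2-Eb1 and -0.013 to 0.34 for H2-DMb1. Deviations of same-numbered libraries were weakly related (r of 0.0912, 0.0336, 0.0190 and 0.0182), and those of different-numbered ones had r of -0.12 to 0.13. This check cannot show whether the numbers pair mice. With the replicate block 1 gene and 0 members were called, 5 members were higher, and H2-DMb1 differed by 0.39.

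The number of libraries limits the precision, and the labels name no batch. Ciita rests on an estimated 44 to 102 fragments per library, and values under 1 FPKM are compressed by the pseudocount.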
